A study of Homo sapiens with 15 samples.

Results

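The transcripts described here encode translation initiation factors (eIFs) and translation elongation factors (eEFs) of human cells, with some proteins named after them. They were taken as the rows of the count table whose symbol begins with EIF and a digit of 1 to 6, or with EEF and 1 or 2. The kinases of the EIF2AK family and the methyltransferases named EEF1AKMT and EEF2KMT were left out. This took 9 of 70 matching rows away and left 61 of the table's 19143 rows. EEF1AKNMT, a methyltransferase that acts on eEF1A, stayed in by its name, as did the kinase EEF2K and the eIF4E-binding proteins. RNA sequencing was done on MHCC-97H, an established human hepatocellular carcinoma line, in 15 libraries from 5 groups of 3. A first round of sequencing held the line in an animal, in a 3D model and in 2D culture, called animal, 3D and 2D below. A second round held the 3D model after heat (3D heat) and the untreated 3D model (3D control). Within each group the libraries are labelled as biological replicates. The labels say nothing of separate cultures or animals, so p-values measure the spread between these libraries. The host animal, the site of growth, the temperature and length of heating and the time of collection are not given in the labels. The study asked what a 3D environment gives these cells that bears on their resistance to heat.

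In eukaryotic cells a small ribosomal subunit carrying eIF1, eIF1A, eIF3 and eIF5 takes up the initiator tRNA from eIF2 and GTP. The cap-binding complex eIF4F, made of eIF4E, the scaffold eIF4G and the helicase eIF4A, brings it to the capped end of an mRNA. Growth signals through mTOR free eIF4E from its binding proteins, and stress kinases phosphorylate the alpha subunit of eIF2, which blocks the exchange factor eIF2B. In elongation, eEF1A delivers aminoacyl-tRNA, the eEF1B complex recharges it with GTP, and eEF2 moves the ribosome along. The kinase eEF2K phosphorylates eEF2 and so slows this step. Levels of the transcripts say nothing of phosphorylation, by which much of this control is exerted.

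Many mRNAs of the translation machinery begin with a C followed by a run of pyrimidines, the 5′ terminal oligopyrimidine (TOP) tract, through which mTOR and the protein LARP1 control their translation. RefSeq promoters (GRCh38.p14) were matched for 51 members, and 12 of these (23.5%) had a C at the annotated start followed by at least 4 pyrimidines, read on the sense strand at that base only. The same letters stood at the start of 4.07% of all 35116 promoters. A match is a description of the annotated start and not a measured start site. Those below are some of the 12, taken from elongation factors, eIF3 and eIF4A. With all libraries of a round in the fit, EEF2, EIF3F and EIF3M were called in a comparison below. EEF1A1, EEF1B2 and EIF4A2 were called in none. EIF4A1 and EEF1G had no such tract and are not shown. Each line gives 20 bases before and 20 bases from the annotated start, 5′ to 3′ on the gene's strand, with the tract in capitals.
EEF1A1 (chr6:73521013-73521052, minus strand): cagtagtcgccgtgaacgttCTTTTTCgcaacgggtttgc
EEF2 (chr19:3985444-3985483, minus strand): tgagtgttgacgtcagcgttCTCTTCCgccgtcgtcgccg
EEF1B2 (chr2:206159875-206159914, plus strand): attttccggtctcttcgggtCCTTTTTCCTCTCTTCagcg
EIF3F (chr11:7987317-7987356, plus strand): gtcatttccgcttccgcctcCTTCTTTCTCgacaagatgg
EIF3M (chr11:32583811-32583850, plus strand): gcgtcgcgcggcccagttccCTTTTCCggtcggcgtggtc
EIF4A2 (chr3:186783557-186783596, plus strand): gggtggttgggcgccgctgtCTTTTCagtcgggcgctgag
The starts of 4 members whose levels moved and that have no such tract at the annotated base are shown for comparison, in lower case throughout.
EIF4E (chr4:98929114-98929153, minus strand): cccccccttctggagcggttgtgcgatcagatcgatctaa
EIF5 (chr14:103334868-103334907, plus strand): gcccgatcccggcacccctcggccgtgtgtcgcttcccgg
EIF2B1 (chr12:123633667-123633706, minus strand): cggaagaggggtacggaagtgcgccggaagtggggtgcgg
EEF2K (chr16:22206258-22206297, plus strand): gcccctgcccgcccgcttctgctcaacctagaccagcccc

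Total counts were 12605539 to 18634295 per library, and reads of the 61 members made up 1.32% to 1.77% of them. Of the members, 60 passed the filter on low counts in each round; EIF4E1B, an oocyte relative of eIF4E in other vertebrates, did not. Of the 15 libraries, 3 stood apart from the rest. The TMM scaling factors of 3D replicates 1 and 2 were 0.758 and 0.769 and that of 3D heat replicate 1 was 0.649, against 0.969 to 1.28 in the other 12 libraries. Over the 59 members with transcript GC content from the GENCODE 29 annotation and a printed level, the departure from the 2D mean followed GC content in 3D replicates 1 and 2 (Spearman's rho 0.680 and 0.791, a description across genes) and not in 3D replicate 3 (-0.0678). The departure from the 3D control mean followed it in 3D heat replicate 1 (0.555), and was -0.160 and -0.352 in 3D heat replicates 2 and 3. Called results that use 3D are given with and without the first 2 of these libraries, and heat results with and without the third. With 3D replicates 1 and 2 left out, replicate 3 stands alone and its spread is taken to be that of the other groups. The 3D libraries differed among themselves more than those of animal or 2D did. Adjusted p-values and counts of calls against 3D or of 3D from that fit are therefore no support for a difference.

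**Figure D1:**
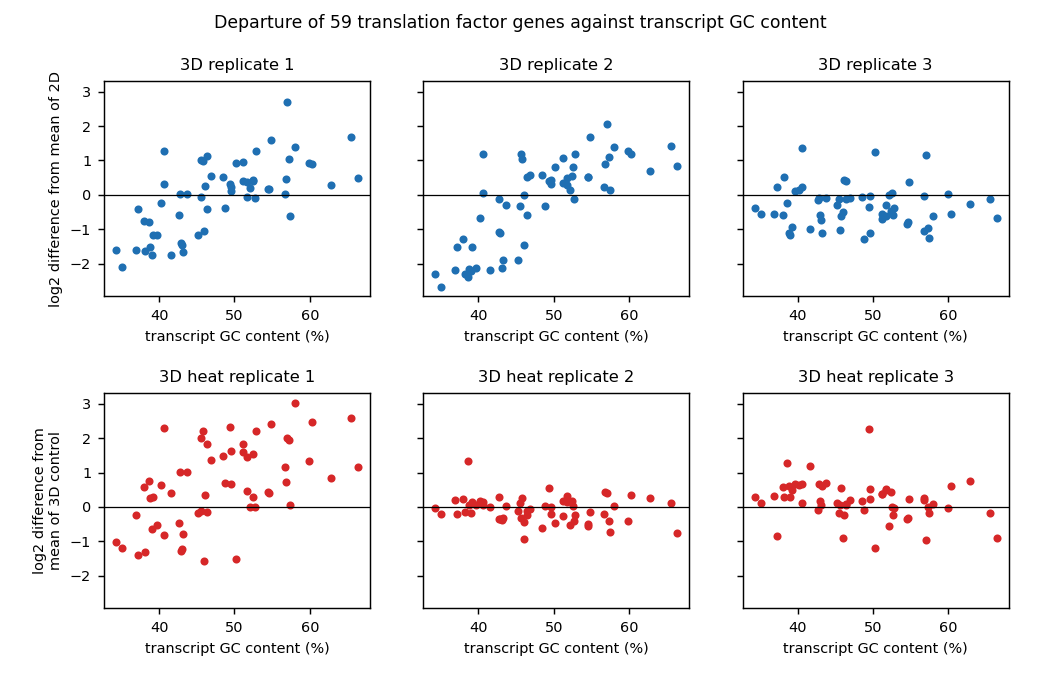
Each point is 1 of 59 translation factor genes in 1 library, with the GC content of its longest annotated protein-coding transcript on the x axis and its log2(CPM + 0.5) minus the mean of 2D (top row, 3D libraries) or of 3D control (bottom row, 3D heat libraries) on the y axis. Points climb with GC content in 3D replicates 1 and 2 (rho 0.680 and 0.791) and in 3D heat replicate 1 (0.555), and do not in the other 3 libraries.

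Markers of the liver cancer epithelium (7 genes, keratins, EPCAM, CDH1, AFP and ALB) summed to 3187 to 3351 CPM in animal libraries, 3123 to 9813 in 3D and 3676 to 3834 in 2D. Markers of other cells were higher in animal libraries than in 2D for 4 of 5 lists: 165 to 466 CPM against 64.9 to 69.6 for 9 fibroblast and pericyte genes, 167 to 220 against 104 to 110 for 9 macrophage and leukocyte genes, 6.26 to 17.0 against 1.43 to 1.72 for 6 endothelial genes, and 0.667 to 6.40 against 0.107 to 0.377 for 4 red blood cell genes. The fifth list, of 5 muscle genes, summed to 5.94 to 6.47 CPM in animal libraries against 13.9 to 15.7 in 2D, mostly from ACTA1, while DES and CKM averaged 0.889 and 0.506 CPM in animal libraries and were at 0 in 2D. KRT8 and KRT18 made up nearly all of the epithelial sum, and ALB within it averaged 165 ± 106 CPM in animal libraries and 2.37 ± 0.23 in 2D (SD, n = 3). THY1 in the fibroblast list and TYROBP in the macrophage list were at 0 in all 3 animal libraries. In 3D libraries the macrophage and leukocyte sum was 392 to 475 CPM and the fibroblast and pericyte sum 15.6 to 114. CD68 carried most of the macrophage and leukocyte sum there, with 427 ± 42.2 CPM in 3D and 101 ± 2.90 in 2D. ITGAM and CD74 were higher in 3D too, averaging 10.3 and 6.34 CPM there and 3.42 and 1.62 in 2D. CSF1R, CD14, TYROBP and LYZ had slightly higher means in 3D, at levels below CD74 in both groups. PTPRC averaged 0.319 CPM in 3D and 0.304 in 2D, and CD163 averaged 0.266 CPM in 3D and 0.766 in 2D. In the second round the epithelial sum was 1495 to 4684 CPM in 3D heat and 3023 to 3253 in 3D control, the macrophage and leukocyte sum 245 to 525 against 228 to 246, and the fibroblast and pericyte sum 21.4 to 56.3 against 75.3 to 76.8. The part of other cells in the results below was not tested unless a value is given.

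Levels are in CPM, the counts of a gene scaled to library size by TMM within each round. Per kb of the longest annotated transcript, EEF2, EIF4A1, EEF1G, EEF1A1 and EIF5A were among the 6 most abundant members in every group. In animal libraries EEF2, EIF4A1 and EEF1G lay within 1 SD of each other, at 505 ± 25.0, 505 ± 13.3 and 504 ± 48.5 CPM per kb (SD, n = 3), followed by EEF1A1 at 409 ± 36.4 and EIF5A at 311 ± 44.0. In 2D the order was EIF4A1 (608 ± 17.5), EEF2 (587 ± 8.80), EEF1A1 (455 ± 5.30), EIF5A (437 ± 20.3) and EEF1G (423 ± 8.83). In 3D control EEF2 stood at 522 ± 3.35 CPM per kb and EEF1A1, EEF1G and EIF4A1 at 392 to 429.

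**Figure D2:**
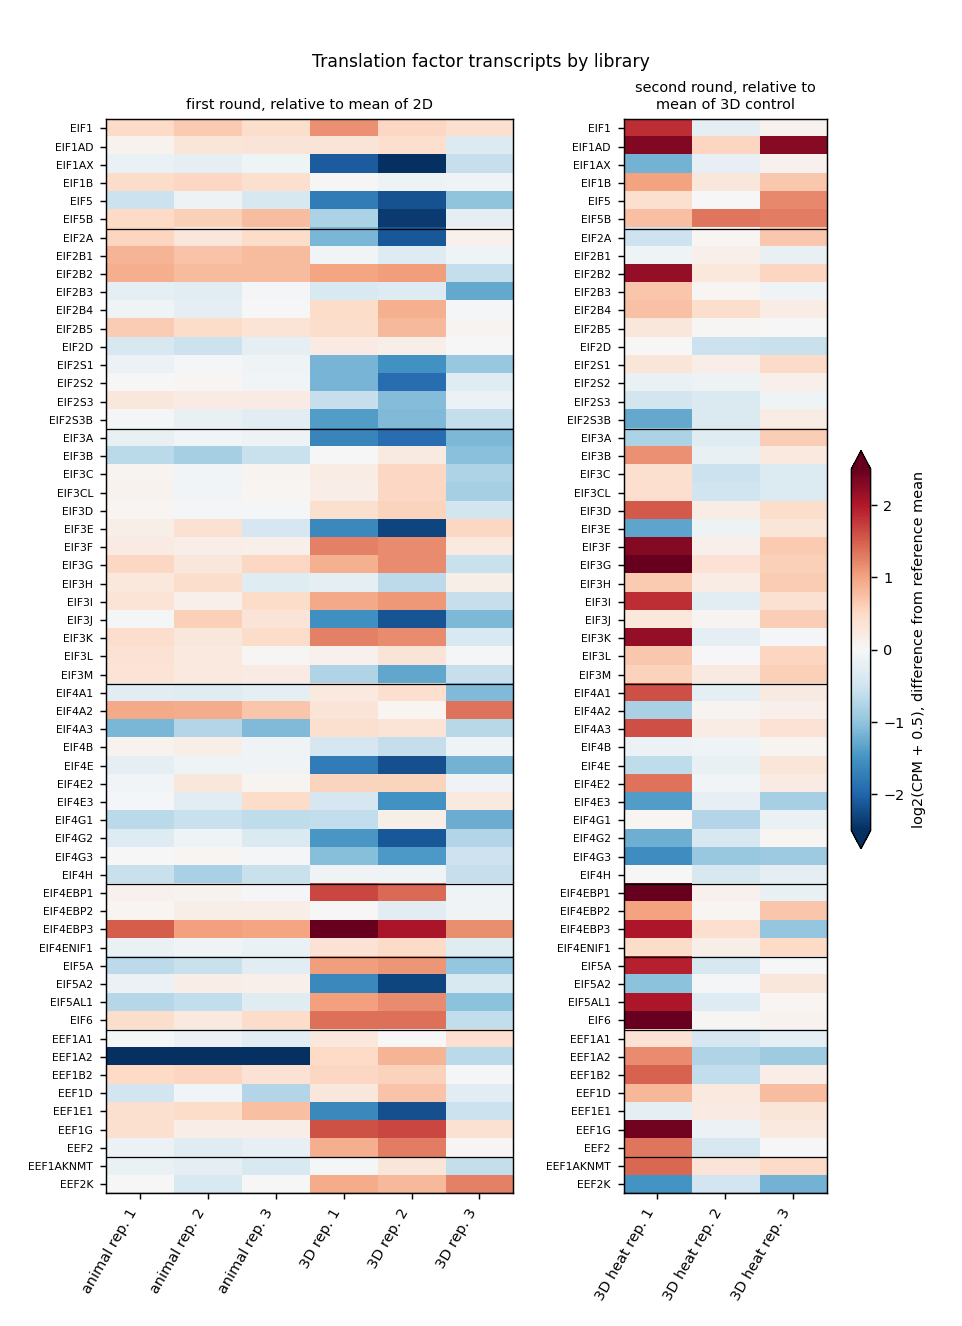
Rows are translation factor genes grouped by role (top to bottom: start codon and joining factors, eIF2 and eIF2B, eIF3, eIF4, eIF4E-binding proteins, eIF5A and eIF6, elongation factors, enzymes that modify them) and columns are libraries. Colour gives log2(CPM + 0.5) minus the mean of 2D (left) or of 3D control (right); EEF1A2 is deep blue in the 3 animal libraries, and 3D replicates 1 and 2 and 3D heat replicate 1 carry most of the strong colours elsewhere.

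The animal libraries differed from 2D most in EEF1A2, the form of eEF1A that adult tissues keep mainly in muscle, heart and neurons and that some tumours express. EEF1A2 had 4.94, 8.46 and 6.43 CPM in animal libraries, 353, 452 and 157 CPM in 3D and 266, 244 and 242 CPM in 2D. The groups were far apart, with the highest animal library below every 3D and 2D library. The log2 fold change against 2D was -5.25 ± 0.43 (SE), a 38.0-fold lower level (edgeR quasi-likelihood test, Benjamini-Hochberg adjusted p = 0.000314), and against 3D it was -5.60 ± 0.44 (adjusted p = 0.000295). Without 3D replicates 1 and 2 the value against 3D was -4.59. Ranked over genes that averaged 10 CPM or more, EEF1A2 was number 2 by size of fall in 9413 genes against 2D and number 7 in 9506 against 3D. All 19 alternatives to the processing kept the call in both comparisons, though against 3D the fit without 3D replicates 1 and 2 is no support.

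The animal libraries held 82, 123 and 106 EEF1A2 reads, with exact Poisson 95% intervals of 65.2 to 102, 102 to 147 and 86.8 to 128 that cover counting error only. Its near relative EEF1A1, the form of most cells, had 1974, 1825 and 1651 CPM in animal libraries, 2435, 2009.7 and 2718 CPM in 3D and 2034, 2032 and 1992 CPM in 2D. The log2 fold change of EEF1A1 was -0.15 ± 0.18 in animal against 2D (adjusted p = 0.670). There were 0.00250 to 0.00464 EEF1A2 reads per EEF1A1 read in animal libraries, against 0.120 to 0.131 in 2D and 0.0579 to 0.225 in 3D. Of the 6 genes on each side of EEF1A2 in RefSeq order, 5 were tested in animal against 2D and none was called, with log2 fold changes of -0.89 (PPDPF) to 0.77 (HELZ2). In bulk samples, fewer cells that express a gene and less RNA per cell cannot be told apart. The part of other cells in the level of EEF1A2 was not tested.

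**Figure D3:**
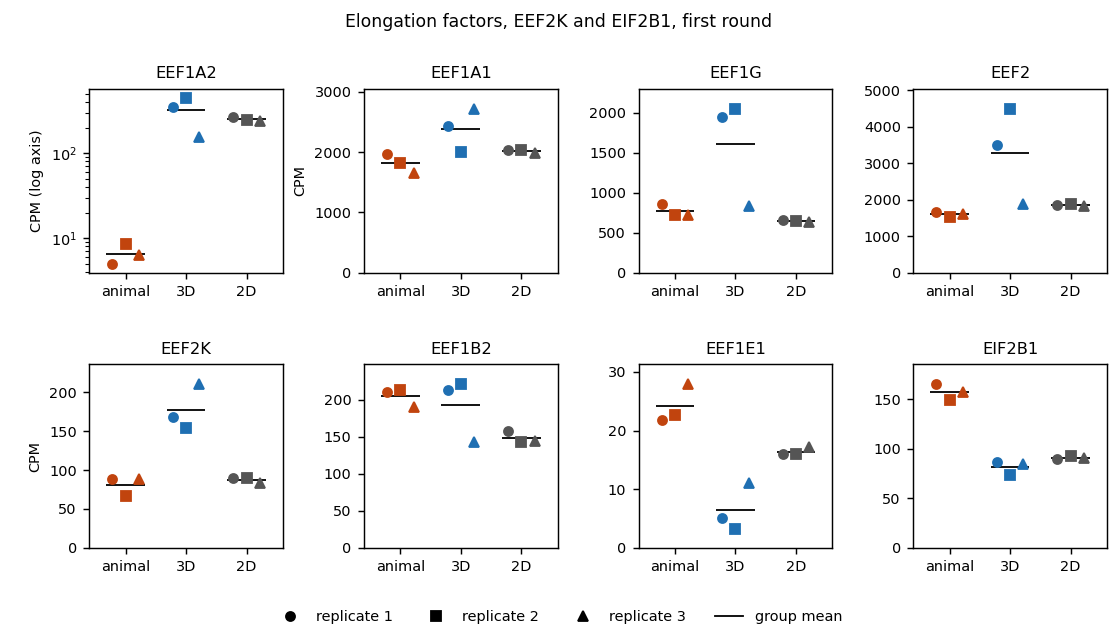
Level in CPM of 5 elongation factors, EEF1E1, the kinase EEF2K and the eIF2B subunit EIF2B1 in each first-round library (points, shape by replicate number; lines are group means, n = 3), with a log axis for EEF1A2 and axes from 0 for the rest. EEF1A2 lies at 4.94 to 8.46 CPM in animal libraries and above 157 CPM in all 3D and 2D libraries, and EEF2K is above 154 CPM in the 3 3D libraries and below 90 CPM in the others.

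Of the 60 members tested in animal against 2D, 1 rose and 1 fell (3.33%), while 12 percent of all 12925 genes tested were called, 7.78 percent higher and 4.25 percent lower. Besides the fall of EEF1A2, EIF2B1 rose, the alpha subunit of the exchange factor eIF2B through which phosphorylated eIF2 is sensed. It had 166, 149 and 157 CPM in animal libraries, 87.1, 73.1 and 84.6 CPM in 3D and 90.0, 92.5 and 90.7 CPM in 2D. The animal libraries lay above all others, with a log2 fold change of 0.79 ± 0.16 against 2D (adjusted p = 0.0123) and 0.95 ± 0.16 against 3D (adjusted p = 0.00262). Against 2D the call was lost in 4 of 19 alternatives (adjusted p up to 0.0837 there), and against 3D in none. In the GENCODE annotation DDX55, on the opposite strand, shares 14.8% of the exon bases of EIF2B1. The protocols mention no step that keeps the strand, so the counts of EIF2B1 may hold DDX55 reads. The part of such reads was not tested. The other subunits of eIF2B and eIF2 were not called against 2D. The median log2 fold change over the 60 members was 0.05, beside 0.03 over all genes.

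The fit pools the spread of the 3D libraries with that of the other groups, and the counts were higher in fits without some or all of them. With only the animal and 2D libraries in the fit, 20 members were higher and 13 lower, and 57.4% of all genes were called; with 3D replicates 1 and 2 left out, 19 were higher and 13 lower, with 55.6% of all genes. The members with groups apart numbered 42 of 60 (70.0%), near the 66.4% of all genes. Of the cap-binding group members that follow, EIF4A3 was chosen after its values were seen and the others are named in every comparison.

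EIF4A2, the eIF4A helicase form linked to repression by microRNAs as well as to initiation, had 379, 374 and 318 CPM in animal libraries, 246, 203 and 503 CPM in 3D and 189, 199.7 and 199 CPM in 2D. The animal libraries were all above 2D, with a log2 fold change of 0.86 ± 0.31 (adjusted p = 0.115, and 0.000148 without 3D replicates 1 and 2). EIF4A1, the main helicase of eIF4F, had 889, 862 and 908 CPM in animal libraries, 1258, 1437 and 495 CPM in 3D and 1103, 1049 and 1051 CPM in 2D. The animal libraries were below 2D here, with a log2 fold change of -0.27 ± 0.34 (adjusted p = 0.684). The ratio of EIF4A2 to EIF4A1 reads was 0.350 to 0.434 in animal libraries, 0.141, 0.195 and 1.02 in 3D and 0.171 to 0.190 in 2D. In the second round it was 0.0783 to 0.514 in 3D heat and 0.402 to 0.455 in 3D control. In GENCODE 29 a readthrough with SENP3 shares 29.8% of the exon bases of EIF4A1, and both genes hold small nucleolar RNAs, so reads may have been split between genes.

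EIF4G1, the main eIF4F scaffold, had 593, 645 and 615 CPM in animal libraries, 623, 1055 and 399.7 CPM in 3D and 964, 986 and 899 CPM in 2D. The animal libraries lay below 2D, with a log2 fold change of -0.62 ± 0.31 (adjusted p = 0.242, and 0.000196 without 3D replicates 1 and 2). EIF4A3, the helicase of the exon junction complex, had 82.8, 111 and 84.9 CPM in animal libraries, 242, 235 and 114 CPM in 3D and 192, 182 and 179 CPM in 2D. Its log2 fold change against 2D was -0.99 ± 0.29 (adjusted p = 0.0563, and 0.000295 without those libraries). EIF4EBP3, one of 3 binding proteins that keep eIF4E from eIF4G, had 17.5, 12.2 and 11.9 CPM in animal libraries and 6.11, 6.32 and 4.85 CPM in 2D (adjusted p = 0.0654, and 0.00114 without those libraries).

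For the remaining core factors the differences of the animal libraries from 2D did not pass the test. All animal libraries lay above 2D for EIF1, EIF4EBP2, EIF6, EEF1B2 and EEF1G, and below it for EIF3A, EIF4E, EIF5, EIF5A and EEF2. The groups were apart for 66.4% of all genes in this comparison. EIF1, which guards the choice of start codon, had a log2 fold change of 0.53 ± 0.22, EIF2S1, the alpha subunit of eIF2, -0.10 ± 0.19, EIF3A, the largest subunit of eIF3, -0.12 ± 0.21, and EIF5, the GTPase activator of eIF2, -0.34 ± 0.29. The cap-binding protein EIF4E had -0.15 ± 0.26, EIF4EBP1 0.06 ± 0.38 and EIF4EBP2 0.12 ± 0.16. EIF5A, which helps ribosomes past proline runs, had -0.49 ± 0.44 and EIF6, which keeps free large subunits apart from small ones, 0.38 ± 0.43. Among elongation factors EEF1B2 had 0.47 ± 0.20, EEF1G 0.25 ± 0.31, EEF2 -0.22 ± 0.29 and the kinase EEF2K -0.11 ± 0.19. A p that misses the threshold does not show that these levels were alike.

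In 3D against 2D the cap-binding protein EIF4E, EIF5, EIF1AX, the eIF2 alpha subunit EIF2S1, 3 eIF3 subunits and 2 eIF4G relatives fell. The kinase EEF2K, EEF1G, EIF1, EIF3F and the binding proteins EIF4EBP1 and EIF4EBP3 rose. Of 60 members tested, 6 rose (10%) and 11 fell (18.3%), beside 20 percent higher and 12.9 percent lower of all genes, 32.9 percent in all. Transcript GC content was 35.1% (EIF1AX) to 46.0% (EIF4G3) in the 11 that fell. It was 40.6% (EIF3F) to 65.5% (EIF4EBP1) in the 6 that rose. Over the members it ran from 34.3% (EIF5A2) to 66.4% (EEF1A2). Without 3D replicates 1 and 2, 6 members were higher and 31 lower, with 46.4% of all genes called; the 11 that fell in the fit of all 9 libraries were all among the 31. Without 3D replicate 3, 27 were higher and 20 lower, with 72.2% of all genes called. With an offset for the GC content and length of transcripts, 5 of the 6 and 7 of the 11 calls were kept. The median log2 fold change of the members was 0.02 with all libraries and -0.37 without those 2, beside 0.03 and 0.01 over all genes. Groups were apart for 26 members (43.3%), against 50.2% of all genes.

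EIF4E had 11.2, 8.03 and 16.9 CPM in 3D libraries and 37.5, 39.3 and 39.3 CPM in 2D. Every 3D library lay far below the lowest 2D library, and the log2 fold change was -1.68 ± 0.27 (adjusted p = 0.00349), or -1.21 without 3D replicates 1 and 2. With an offset for the GC content and length of transcripts it was -0.44 and lost its call (adjusted p = 0.171). EIF4G2, an eIF4G relative that cannot bind eIF4E, had 459, 291 and 759 CPM in 3D and 1234, 1292 and 1277 CPM in 2D. Its log2 fold change was -1.33 ± 0.31 (adjusted p = 0.0135), or -0.75 without those libraries. EIF4G3, another eIF4F scaffold, had 40.9, 31.2 and 59.9 CPM in 3D and 84.8, 87.7 and 84.2 CPM in 2D, with groups apart. It changed by a log2 fold of -0.96 ± 0.24 (adjusted p = 0.0162), or -0.53 without those libraries.

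EIF4EBP3 had 40.1, 25.3 and 13.6 CPM in 3D libraries and 6.11, 6.32 and 4.85 CPM in 2D. The groups did not overlap, and the log2 fold change was 2.19 ± 0.39 (adjusted p = 0.00506), or 1.23 without 3D replicates 1 and 2. A readthrough with the neighbouring gene ANKHD1 shares 73.4% of its exon bases in GENCODE 29, so its counts may hold reads of that transcript. EIF4EBP1, the best-known target of mTOR in this group, had 271, 227 and 78.2 CPM in 3D and 88.1, 80.6 and 85.4 CPM in 2D. Its call as higher (log2 fold change 1.18 ± 0.38, adjusted p = 0.0423) rested on 3D replicates 1 and 2, without which the value was -0.13 (adjusted p = 0.330), and with the offset it was -0.42 (adjusted p = 0.0751). EIF4EBP2 had 87.2, 70.9 and 80.8 CPM in 3D and 87.8, 84.9 and 86.0 CPM in 2D and was not called (adjusted p = 0.591). EIF4G1 and EIF4A1, with the values above, were not called either (log2 fold changes -0.46 ± 0.31 and -0.01 ± 0.34), and in both genes 3D replicate 3 was the lowest of the 9 libraries. EIF4A2 was above 2D in all 3 libraries, without a call (log2 fold change 0.69 ± 0.31, adjusted p = 0.116), and had 1.35 without 3D replicates 1 and 2.

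**Figure D4:**
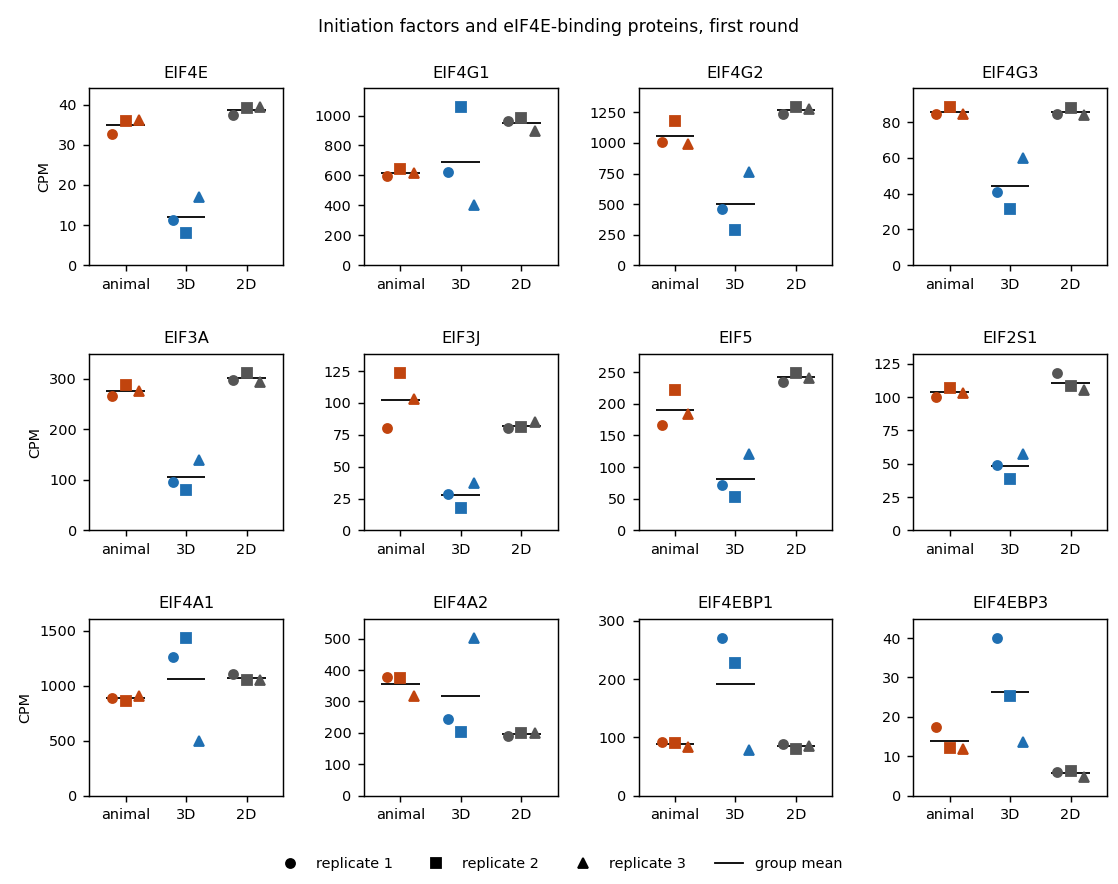
Level in CPM of 12 initiation factors and eIF4E-binding proteins in each first-round library (points, shape by replicate number; lines are group means, n = 3; axes start at 0). EIF4E, EIF4G2, EIF4G3, EIF3A, EIF3J, EIF5 and EIF2S1 are lower in the 3 3D libraries than in all animal and 2D libraries, while EIF4A1, EIF4EBP1 and EIF4EBP3 differ between 3D replicate 3 and the other 3D libraries.

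Subunits of eIF3, the large scaffold of the initiation complex, had calls in both directions in 3D against 2D: of 14 tested, 1 rose and 3 fell (28.6%), near the 32.9 percent called of all genes. EIF3A had 95.0, 80.4 and 138 CPM in 3D and 296, 312 and 294 CPM in 2D, with a log2 fold change of -1.52 ± 0.22 (adjusted p = 0.00221), or -1.13 without 3D replicates 1 and 2. EIF3J, a loosely bound subunit, had 28.2, 17.9 and 37.5 CPM in 3D and 80.3, 80.7 and 84.9 CPM in 2D. The log2 fold change of EIF3J was -1.56 ± 0.28 (adjusted p = 0.00560), or -1.14 without those libraries. For both genes every 3D library lay far below every 2D library. The call held in all 19 alternatives, though the fit without those libraries, 3D replicates 1 and 2, is no support. EIF3M, whose annotated start carries a pyrimidine tract, had 118, 81.3 and 134 CPM in 3D and 201, 199.9 and 199 CPM in 2D (log2 fold change -0.85 ± 0.20, adjusted p = 0.0142, or -0.59 without those libraries). With the offset for GC content and length the direction of EIF3M turned and the call was lost (0.51, adjusted p = 0.221). EIF3F, whose start carries one too, had 212, 199 and 104 CPM in 3D and 88.2, 83.4 and 91.7 CPM in 2D and rose (log2 fold change 0.97 ± 0.26, adjusted p = 0.0218), but had 0.23 without those libraries (adjusted p = 0.0657). EIF3C and EIF3CL are near-identical copies with 0.951 to 1.01 EIF3CL reads per EIF3C read in the 15 libraries, so neither is read alone.

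Among the start codon and subunit joining factors, EIF5 had 71.9, 52.9 and 121 CPM in 3D and 235, 249 and 240.1 CPM in 2D. The groups were well apart, with a log2 fold change of -1.56 ± 0.29 (adjusted p = 0.00602), or -1.01 without 3D replicates 1 and 2. EIF1AX, an eIF1A that scans with the small subunit, had 15.9, 10.5 and 46.4 CPM in 3D and 65.9, 71.8 and 69.1 CPM in 2D, with replicate 3 far above the other 3D libraries. Its log2 fold change was -1.51 ± 0.47 (adjusted p = 0.0377), or -0.58 without those libraries and -0.37 with the offset, where it lost its call (adjusted p = 0.0924). EIF1 rose, with 638, 414 and 384 CPM in 3D and 289, 289 and 289.9 CPM in 2D (log2 fold change 0.73 ± 0.22, adjusted p = 0.0312, or 0.40 without those libraries). EIF1AY, which lies on the Y chromosome, was counted among the members and its level is not given.

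EIF2S1, the eIF2 subunit phosphorylated under stress, had 49.1, 38.3 and 57.4 CPM in 3D libraries and 118, 108 and 106 CPM in 2D. All 3D libraries were below 2D, with a log2 fold change of -1.20 ± 0.19 (adjusted p = 0.00319), or -0.96 without 3D replicates 1 and 2. With the offset for GC content and length the value was -0.01 and the call was lost (adjusted p = 0.980). EIF2S3B, a near-identical copy of the gamma subunit gene EIF2S3, had 7.93, 9.85 and 14.3 CPM in 3D and 20.6, 24.8 and 19.98 CPM in 2D (log2 fold change -1.03 ± 0.26, adjusted p = 0.0168, or -0.62 without those libraries), and short reads may not separate the pair. No subunit of eIF2B was called.

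EEF2K had 168, 154 and 211 CPM in 3D libraries and 89.6, 89.7 and 83.9 CPM in 2D. All 3 3D libraries were above every 2D and animal library, with a log2 fold change of 1.02 ± 0.19 against 2D (adjusted p = 0.00604), or 1.25 without 3D replicates 1 and 2. All 19 alternatives kept the call, though the fit without those 2 libraries is no support. Its substrate EEF2 had 3503, 4494 and 1885 CPM in 3D and 1863, 1881 and 1827 CPM in 2D. Replicate 3 was level with 2D here, and the log2 fold change of 0.83 ± 0.29 did not pass the test (adjusted p = 0.0550). EEF2K had 0.0344 to 0.112 reads per EEF2 read in 3D, against 0.0459 to 0.0481 in 2D.

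EEF1G, a subunit of the eEF1B complex, had 1943, 2049 and 838 CPM in 3D libraries and 659, 643 and 632 CPM in 2D. The log2 fold change was 1.32 ± 0.31 (adjusted p = 0.0136), or 0.37 without 3D replicates 1 and 2. An annotated readthrough shares 99.9% of the exon bases of EEF1G. EEF1E1, which despite its name belongs to the complex of aminoacyl-tRNA synthetases, had 5.06, 3.21 and 11.1 CPM in 3D and 16.0, 16.0 and 17.2 CPM in 2D (log2 fold change -1.34 ± 0.40, adjusted p = 0.0334, or -0.57 without those libraries). EEF1A1, EEF1A2, EEF1B2, EIF5A and EIF6 were not called, with log2 fold changes of 0.24 ± 0.18, 0.35 ± 0.35, 0.38 ± 0.20, 0.65 ± 0.44 and 0.97 ± 0.43. EIF5A had 1355, 1418 and 339 CPM in 3D and 677, 624 and 677 CPM in 2D, and EIF6 had 749, 747 and 186 CPM in 3D and 293, 286 and 282 CPM in 2D. In both, 3D replicates 1 and 2 lay above 2D and replicate 3 below it.

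Animal and 3D libraries differed in more members, and this comparison shares the 3D libraries with the one before. Of 60 members, 17 rose and 8 fell in animal against 3D (41.7%), beside 18.6 percent higher and 22.9 percent lower of all genes, 41.5 percent in all. The median log2 fold change was 0.04, beside 0.10 over all genes. Without 3D replicates 1 and 2, 33 members were higher and 5 lower, with 47.1% of all genes called, and 15 of the 17 and 3 of the 8 were among them. Without 3D replicate 3 the balance turned, with 24 higher and 27 lower and 77% of all genes called. With the offset for GC content and length, 7 of the 17 and 5 of the 8 calls were kept. Rises were called for 5 of 11 members of the eIF2 and eIF2B group, 4 of 7 start codon and joining factors, 3 of 14 eIF3 subunits and 3 of 11 eIF4 factors.

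For the members that fell in 3D against 2D, the animal levels were closer to 2D. They were grouped by low levels in the same 3D libraries, so their rises against 3D are not separate support. EIF3J had 80.1, 124 and 103 CPM in animal libraries and a log2 fold change of 1.88 ± 0.29 against 3D (adjusted p = 0.00195), or 1.44 without 3D replicates 1 and 2. EIF3A had 266, 287 and 275 CPM in animal libraries (1.40 ± 0.22 against 3D, adjusted p = 0.00195, or 0.99 without those libraries), and EIF4E had 32.6, 35.9 and 36.2 CPM (1.54 ± 0.27, adjusted p = 0.00334, or 1.04). All animal libraries lay above all 3D libraries for these 3 genes. EIF5 had 166, 221 and 183 CPM in animal libraries, with a log2 fold change of 1.22 ± 0.29 against 3D (adjusted p = 0.0114), or 0.65 without those libraries. EIF2S1 had 100.3, 107 and 103 CPM in animal libraries (1.10 ± 0.19, adjusted p = 0.00301, or 0.84), EIF3M 253, 237 and 231 CPM (1.11 ± 0.20, adjusted p = 0.00377, or 0.84) and EIF4G2 1011, 1182 and 989 CPM (1.08 ± 0.31, adjusted p = 0.0239, or 0.47). With the offset the direction turned for EIF2S1 (-0.24, adjusted p = 0.498) and EIF3M (-0.41, adjusted p = 0.293), and EIF4E (0.13, adjusted p = 0.661) and EIF5 (0.29, adjusted p = 0.114) lost their calls.

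EEF1E1 had 21.8, 22.6 and 27.9 CPM in animal libraries, the highest of the 3 groups, with a log2 fold change of 1.90 ± 0.41 against 3D (adjusted p = 0.00757), or 1.11 without 3D replicates 1 and 2. EIF5B, the GTPase that joins the subunits at the start codon, had 247, 264 and 299 CPM in animal libraries, 100.1, 32.9 and 148 CPM in 3D and 180.2, 153 and 188 CPM in 2D. The animal libraries were the highest, and the log2 fold change against 3D was 1.52 ± 0.44 (adjusted p = 0.0243), or 0.86 without those libraries. EIF2S2, the beta subunit of eIF2, had 209.7, 215 and 199 CPM in animal libraries and 93.3, 55.5 and 169 CPM in 3D (0.97 ± 0.34, adjusted p = 0.0479, or 0.29 without those libraries). EIF1AX had 61.8, 59.1 and 63.6 CPM in animal libraries (1.34 ± 0.47, adjusted p = 0.0465, or 0.40). EIF5A2, a second eIF5A gene, had 14.9, 18.6 and 18.1 CPM in animal libraries and 5.13, 3.00 and 12.6 CPM in 3D (1.31 ± 0.45, adjusted p = 0.0440), and lost its call without those libraries (0.44, adjusted p = 0.0553). With the offset, EIF1AX (-0.07, adjusted p = 0.731) and EIF5A2 (-0.25, adjusted p = 0.412) turned direction and EIF5B had 0.33 without a call (adjusted p = 0.264). The remaining 5 calls, EIF4G3, EIF2B1, EIF2S3B, EIF2S3 and EIF1B, had log2 fold changes of 0.52 to 0.96, and 0.37 to 0.89 without 3D replicates 1 and 2, where EIF2S3B lost its call (adjusted p = 0.0685). With the offset EIF2S3B, EIF2S3 and EIF1B were not called.

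Against these rises, EEF2K fell to 88.2, 67.2 and 88.1 CPM in animal libraries, near its 2D level, with a log2 fold change of -1.13 ± 0.19 against 3D (adjusted p = 0.00290). The value was -1.38 without 3D replicates 1 and 2. The call was kept in all 19 alternatives, though the fit without those libraries is no support. EEF2 had 1667, 1513 and 1617 CPM in animal libraries (-1.04 ± 0.29 against 3D, adjusted p = 0.0206), but -0.24 without those libraries (adjusted p = 0.0570). EEF1G had 853, 726 and 725 CPM (-1.07 ± 0.31, adjusted p = 0.0240), and -0.13 without those libraries (adjusted p = 0.357). EIF4A3, EIF3F and EIF4EBP1 were called lower as well, with log2 fold changes of -1.09 ± 0.29 (adjusted p = 0.0169), -0.80 ± 0.26 (adjusted p = 0.0353) and -1.12 ± 0.38 (adjusted p = 0.0429). Without those libraries the 3 values were -0.30, -0.08 and 0.17, none of them called as lower. With the offset EIF4EBP1 turned to 0.52 and was called higher (adjusted p = 0.0288), and EEF2 had -0.09 (adjusted p = 0.615). EIF2D, which can deliver initiator tRNA without eIF2, had 29.2, 26.3 and 33.0 CPM in animal libraries and 44.6, 42.7 and 38.7 CPM in 3D (-0.51 ± 0.18, adjusted p = 0.0470), with -0.40 without those libraries and -0.20 with the offset, where the call was lost (adjusted p = 0.319). EIF1, EIF4A1, EIF4A2, EIF4G1, EIF4EBP2, EIF4EBP3, EIF5A, EIF6, EEF1A1 and EEF1B2 were not called in animal against 3D, with log2 fold changes of -1.14 (EIF5A) to 0.24 (EIF4EBP2).

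With heat in the 3D model, several members lay on one side of the controls in all 3 heated libraries, and none of the 60 members passed the test in edgeR. Over all 12627 genes tested, 3 were called (0.0238 percent), with 0.00792 percent higher and 0.0158 percent lower. At an unadjusted p below 0.05 there were 10 members (16.7%), beside 20.8% of all genes. DESeq2 called 2 members higher (EIF5B and EIF1AD) and 2 lower (EIF4G3 and EEF2K), with 12.3% of all genes called. Without 3D heat replicate 1, edgeR called 4 higher (EIF5B, EIF1AD, EIF3G and EEF1AKNMT) and 6 lower (EIF4G3, EIF2D, EEF2K, EIF3C, EIF3CL and EEF1A2), with 28.8% of all genes called. The median log2 fold change of members was 0.41 with all libraries and 0.05 without 3D heat replicate 1, beside 0.10 and 0.03 over all genes. The 20 members with groups apart (33.3%) were near the 36.6% of all genes. The members that follow, up to EEF1A2, were named after their values were seen, because an alternative called them, except EIF5, EEF2K and EEF1A2, which are named in every comparison.

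EIF5B had 125, 186 and 179 CPM in 3D heat libraries and 81.2, 72.7 and 66.5 CPM in 3D control. All heated libraries were above all controls, with a log2 fold change of 1.15 ± 0.26 (adjusted p = 0.108), or 1.31 without 3D heat replicate 1 (adjusted p = 0.00458). EIF1AD, a protein with an eIF1A-type domain, had 172, 50.0 and 167 CPM in 3D heat and 33.9, 33.5 and 35.4 CPM in 3D control. Heated replicates 1 and 3 stood far above replicate 2 and all of them above the controls, with a log2 fold change of 1.92 ± 0.48 (adjusted p = 0.120), or 1.66 without replicate 1 (adjusted p = 0.0448). EIF5 had 231, 174 and 401 CPM in 3D heat and 173, 180.4 and 173 CPM in 3D control, with replicate 3 far above the rest (log2 fold change 0.62 ± 0.35, adjusted p = 0.352, or 0.71 without replicate 1, adjusted p = 0.145).

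EIF4G3 had 25.9, 40.0 and 41.1 CPM in 3D heat libraries and 75.4, 79.3 and 76.7 CPM in 3D control. Every heated library lay far below every control, with a log2 fold change of -1.11 ± 0.27 (adjusted p = 0.114), or -0.93 without 3D heat replicate 1 (adjusted p = 0.00598). EEF2K had 51.4, 105 and 64.0 CPM in 3D heat and 154, 139.9 and 144 CPM in 3D control. The groups did not overlap, and the log2 fold change was -0.99 ± 0.32 (adjusted p = 0.163), or -0.79 without replicate 1 (adjusted p = 0.0447). EIF2D had 34.6, 23.7 and 23.2 CPM in 3D heat and 34.5, 34.0 and 34.7 CPM in 3D control, with replicate 1 level with the controls and the others below them (log2 fold change -0.34 ± 0.26, adjusted p = 0.461, or -0.56 without replicate 1, adjusted p = 0.0190). EEF1A2 had 371, 97.5 and 88.6 CPM in 3D heat and 170.1, 157 and 166 CPM in 3D control, so replicate 1 lay above and the others below the controls. Its log2 fold change was 0.18 ± 0.57 with all libraries (adjusted p = 0.886) and -0.83 without replicate 1 (adjusted p = 0.00842).

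**Figure D5:**
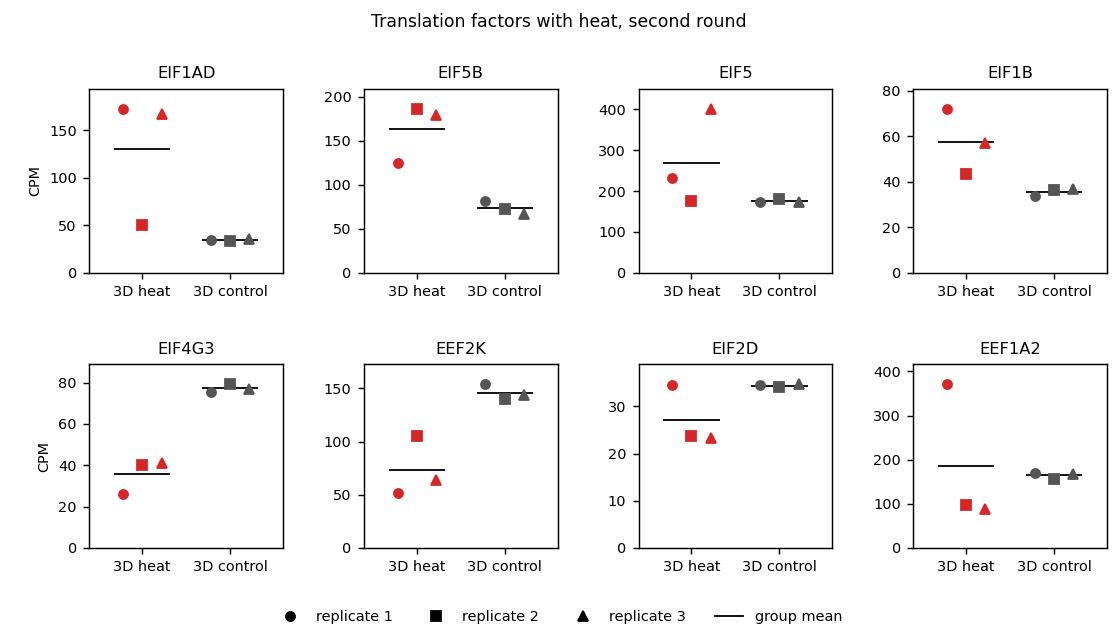
Level in CPM of 8 members in each second-round library (points, shape by replicate number; lines are group means, n = 3; axes start at 0). EIF1AD, EIF5B and EIF1B are higher and EIF4G3 and EEF2K lower in the 3 3D heat libraries than in the 3D control libraries, while EEF1A2 is high in 3D heat replicate 1 and low in the other 2 heated libraries.

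Of the other core factors, EIF1, EIF4A1, EIF4EBP1, EIF4EBP2, EIF4EBP3, EIF5A, EIF6, EEF1B2, EEF1G and EEF2 were more than 1 log2 unit above the control mean in 3D heat replicate 1. EIF3A, EIF4A2 and EIF4E were below it there, by log2 differences of -0.79, -0.82 and -0.63. EEF1G had 3172, 544 and 705 CPM in 3D heat and 615, 599 and 581 CPM in 3D control. EIF6 had 1786, 225 and 232 CPM in 3D heat and 211, 220.1 and 228 CPM in 3D control, and EIF4EBP1 had 434, 77.7 and 63.4 CPM in 3D heat and 69.6, 71.3 and 75.0 CPM in 3D control. In 3D heat replicate 1, 24 of 59 members were more than 1 log2 unit above the control mean and 8 more than 1 below it; replicate 2 had 1 and 0 and replicate 3 had 3 and 1. EIF4EBP3 had 40.5, 13.0 and 4.71 CPM in 3D heat and 11.4, 7.49 and 10.03 CPM in 3D control. EIF1, EIF4A1, EIF4EBP2, EIF5A, EEF1B2 and EEF2 had log2 fold changes of 0.51 (EEF2) to 0.91 (EIF5A), and EIF2S1, EIF3A, EIF4A2, EIF4E, EIF4G1 and EEF1A1 of -0.25 (EIF4G1) to 0.32 (EIF2S1), with SEs of 0.22 to 0.64 over these 12 genes. Without 3D heat replicate 1 the log2 fold changes of the 16 genes of this paragraph were -0.42 (EIF4G1) to 0.41 (EIF4EBP2), and none was called.

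The kinase EEF2K had its highest mean levels in untreated 3D cells of either round. On one TMM scale for the 15 libraries, it averaged 80.6 ± 12.2 CPM in animal, 181 ± 24.8 in 3D, 87.2 ± 3.46 in 2D, 73.0 ± 28.0 in 3D heat and 146 ± 7.26 in 3D control (SD, n = 3 each). On that scale EEF1A2 averaged 6.56 ± 1.73 CPM in animal, 329.5 ± 160.2 in 3D, 249 ± 13.7 in 2D, 185 ± 159 in 3D heat and 164 ± 6.66 in 3D control. EIF4E averaged 34.7 ± 1.81 CPM in animal, 12.2 ± 4.21 in 3D, 38.4 ± 0.992 in 2D, 24.7 ± 8.11 in 3D heat and 27.0 ± 3.15 in 3D control. The 3D control level of EIF4E was above every first-round 3D library. Rounds differ in more than the groups, so these levels are set side by side without a test.

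Of the 12 members with a pyrimidine tract at the annotated start, 1 rose (EIF3F) and 1 fell (EIF3M) in 3D against 2D, none was called in animal against 2D or with heat, and 2 rose and 3 fell in animal against 3D, beside 32.9, 12, 0.0238 and 41.5 percent of all genes called in 3D against 2D, in animal against 2D, with heat and in animal against 3D. Their median log2 fold change was 0.23 in 3D against 2D, 0.20 in animal against 2D, -0.07 in animal against 3D and 0.32 with heat. Over the 38 tested members with no tract the medians were -0.10, 0.01, 0.04 and 0.43. The difference between the 2 sets was not tested.

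A list of 58 other genes of the pathway, among them release factors, poly(A)-binding proteins, eIF2 kinases and mTOR complex genes, was found and tested in full. In 3D against 2D, 8 rose and 13 fell (36.2%, beside 32.9 percent of all genes). In animal against 2D, 2 rose and 3 fell (8.62%, beside 12 percent), and in animal against 3D, 17 rose and 13 fell (51.7%, beside 41.5 percent). With heat none was called by edgeR, beside 0.0238 percent of all genes. At an unadjusted p below 0.05 there were 11, beside 20.8% of all genes. DESeq2 called 3 higher and 1 lower, beside 12.3% of all genes. Without 3D heat replicate 1, edgeR called 9 higher and 6 lower, beside 28.8% of all genes. Counts without 3D replicates 1 and 2 are not given for this list, as the 3D group then held 1 library. The genes named from this list were chosen after their values were seen. DDIT4, an inhibitor of mTOR complex 1, had 261, 228 and 252 CPM in 3D and 30.0, 31.3 and 35.8 CPM in 2D, with a log2 fold change of 2.93 ± 0.30 (adjusted p = 0.000935), or 2.95 without 3D replicates 1 and 2. MKNK2, a kinase of eIF4E, had 542, 465 and 535 CPM in 3D and 122, 129 and 131 CPM in 2D (2.01 ± 0.16, adjusted p = 0.000642, or 2.06 without those libraries). For both genes all 3 3D libraries lay far above every 2D library. MTOR itself had 35.3, 55.4 and 29.4 CPM in 3D and 80.9, 82.5 and 74.7 CPM in 2D (-0.99 ± 0.24, adjusted p = 0.0162, or -1.44 without those libraries).

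The release factor ETF1 had 45.4, 39.7 and 58.5 CPM in 3D and 145, 143 and 143 CPM in 2D (-1.58 ± 0.19, adjusted p = 0.00128, or -1.31 without 3D replicates 1 and 2), and the ribosome recycling factor ABCE1 had 54.5, 19.6 and 95.4 CPM in 3D and 230.4, 232 and 230.5 CPM in 2D (-2.03 ± 0.47, adjusted p = 0.0125, or -1.29 without them). LARP1, which binds TOP mRNAs, was lower in both settings than in 2D, with 195, 209 and 222 CPM in animal libraries, 206, 222 and 178 CPM in 3D and 345, 363 and 337 CPM in 2D. The log2 fold change was -0.74 ± 0.16 in animal against 2D (adjusted p = 0.0186) and -0.79 ± 0.16 in 3D against 2D (adjusted p = 0.00802), or -0.98 without those libraries. SESN2, which restrains mTOR complex 1 when leucine is short, fell in animal libraries, with 7.82, 13.1 and 6.73 CPM there and 45.8, 38.5 and 44.5 CPM in 2D (-2.22 ± 0.33, adjusted p = 0.00363). PPP1R15A, the stress-induced subunit of the phosphatase that acts on eIF2 alpha, had 2241, 322 and 891 CPM in 3D heat and 198, 201 and 201 CPM in 3D control. All heated libraries were above all controls, and the log2 fold change of 2.52 ± 0.69 did not pass the test (adjusted p = 0.130). Without 3D heat replicate 1 it was 1.60 and was called (adjusted p = 0.0333).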

How the data were processed

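Messenger RNA was fragmented, primed with random hexamers and read as short single-end reads by DNA nanoball sequencing, per the labels' protocols, which mention no step that keeps the strand. The submitters' processing notes name HISAT2, with no version given, and the hg19 build. Which program counted the reads, its annotation, its strand setting, its treatment of shared reads and whether host reads were removed are not given in the sources used here. What was deposited is a table of raw counts by gene symbol, and all 15 columns were used. In 27 rows the symbol had become a date (0.168% of counts); these stayed in the fit unnamed.

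Counts were fitted in R 4.3.3 with edgeR 4.0.16 (filterByExpr by group, TMM, robust quasi-likelihood fit, group as the only term), over the 9 first-round libraries and, apart from them, the 6 second-round libraries. Calls were made at p below 0.05 after Benjamini-Hochberg adjustment over all genes tested; every adjusted p is from this test unless another tool is named. CPM are from edgeR's cpm function. Departures in the maps use a pseudocount of 0.5. Transcript GC content and length are those of the longest protein-coding transcript in GENCODE 29 (GRCh38); promoters are RefSeq's on GRCh38.p14. No coordinates were converted between builds. Depth limits low members: counting intervals are exact Poisson and cover counting error only.

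The members and lists were chosen with earlier results of these data known. Named in each comparison were called members with a mean of at least 10 CPM and groups apart, up to 12 per direction, plus 19 core factors; exceptions are stated. Alternatives were DESeq2 1.42.0, scaling by upper quartile or median ratio, a stricter filter (10 reads in every library of a group) and none, the replicate number as a block, a spline offset (5 degrees of freedom) for GC content and length, all 15 libraries or only 2 groups in the fit, and each library left out. The fitting script was tested on simulated counts.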

Additional observations from a re-analysis of the deposited data

How the results depend on the processing

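Of the named results, those on EEF1A2 (animal against 2D and 3D), EEF2K (3D against 2D and animal against 3D), EIF3A and EIF3J (same pair of comparisons), EIF5 and EIF4EBP3 (3D against 2D), and EIF2B1 and EEF1E1 (animal against 3D) were called under each of 19 alternatives. Where 3D is compared, the fit without 3D replicates 1 and 2 is among the 19 and is no support. With the offset for GC content and length, members higher in 3D against 2D numbered 10, beside 15.9% of all genes higher. The direction turned for EIF4EBP1 (-0.42) and EIF3M (0.51) in 3D against 2D. In animal against 3D it turned for EIF5A2 (-0.25), EIF4EBP1 (0.52), EIF3M (-0.41), EIF2S1 (-0.24) and EIF1AX (-0.071). The median of members in animal against 3D was 0.11 and that in animal against 2D was 0.0037. With heat 2 members were higher and 2 lower, beside 10.6% of all genes called. Without 3D replicates 1 and 2, 31 members were lower in 3D against 2D (median -0.37), 19 were higher and 13 lower in animal against 2D, and 33 higher and 5 lower in animal against 3D (median 0.41), with EIF4EBP1 at -0.13 in 3D against 2D and 0.17 in animal against 3D. With all 15 libraries in one fit, 2 members were higher in 3D against 2D, beside 16.2% of all genes higher. With heat 2 were higher and 2 lower in that fit, beside 11.4% of all genes called. With only the 2 groups compared, 20 were higher and 13 lower in animal against 2D, beside 57.4% of all genes called. In animal against 3D 7 were higher (median -0.037), beside 7.85% of all genes higher. DESeq2 gave 4 higher and 3 lower in animal against 2D, beside 19% of all genes called. In animal against 3D it gave 14 lower (median -0.082), beside 28.6% of all genes lower. With heat it gave 2 higher and 2 lower, beside 12.3% of all genes called. Upper-quartile scaling gave 2 higher and 3 lower in animal against 2D (median 0.12), beside 12.4% of all genes called. It gave a median of 0.18 in animal against 3D, where it moved the median of all genes to 0.21. Median-ratio scaling gave a median of -0.0821 there. EEF1A2 with heat turned to -0.049 under upper-quartile scaling, -0.18 with the replicate block, -0.41 with the offset and -0.83 without 3D heat replicate 1.

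Leaving out 1 library at a time gave 2 to 27 members higher and 5 to 20 lower in 3D against 2D (median -0.09 to 0.16), 0 to 13 higher and 1 to 9 lower in animal against 2D (median 0.0054 to 0.045), 8 to 24 higher and 2 to 27 lower in animal against 3D (median -0.17 to 0.19), and 0 to 4 higher and 0 to 6 lower with heat (median 0.05 to 0.48). In the same fits, 13.6% to 72.2% of all genes were called in 3D against 2D and 4.94% to 40.4% in animal against 2D. The shares were 25.5% to 77% in animal against 3D and 0% to 28.8% with heat. The highest counts in the first round came without 3D replicate 3. The cause was not tested for any of these shifts. Deviations of same-numbered libraries from their group means had correlations of -0.283 to 0.218. With 3 libraries per group these values cannot show whether the numbers pair the libraries. With the replicate number as a block, 4 members were higher and 11 lower in 3D against 2D, beside 25.3% of all genes called. The block gave 1 and 1 in animal against 2D (beside 7.98%) and 16 and 5 in animal against 3D (beside 35.9%). With heat it gave 0 and 0 (beside 0.238%). Depth is not limiting for most members, but EIF4E3, EIF5A2, EIF4EBP3 and animal EEF1A2 rest on few reads. So do the 3D levels of EEF1E1 (67, 46 and 179 reads), EIF4E (148, 115 and 272) and EIF2S3B (105, 141 and 230).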
